A study of Rattus norvegicus with 33 samples.

Results

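The effect of the implanted collagen sponge alone on the dorsal root ganglion (DRG) was examined at 3 days post surgery (dps), as DRG RNA of rats implanted with vehicle in an absorbable collagen sponge (vehicle/ACS, n = 3) against that of rats operated without an implant (no sponge, n = 3). These are the arrays whose titles name a vehicle sponge or no sponge at day 3, 6 of the 33 arrays of the series. All were Sasco/Sprague-Dawley females of 13 weeks, and all had the same operation, in which the transverse processes of vertebrae L4 and L5 were exposed. The vehicle/ACS rats then received, on one side, sponges of bovine type I collagen soaked in a buffer of glycine, glutamic acid, salt, sucrose and Tween, so that buffer and collagen cannot be told apart. The no sponge rats received neither. Another group at 3 dps, rhBMP-2/ACS (n = 3), carried human bone morphogenetic protein 2 in the same buffer and sponge. As unoperated rats are not among the groups, every value is a difference between 2 kinds of operated rats. Each array held L4/L5 DRG RNA of 1 rat, chosen for RNA quality and amount. The side of the DRG is stated only for implanted rats and was taken to be the operated one for no sponge.

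The DRG holds the cell bodies of the sensory neurons that serve skin, muscle and viscera, each wrapped by satellite glia, together with Schwann cells, vessels, macrophages and a sheath continuous with the meninges. When their axons are cut or compressed, sensory neurons are known to switch on the transcription factor Atf3 and the peptides galanin, neuropeptide Y and VIP, and to lower some peptides and channels of the uninjured state. Collagen sponges lie on bone and muscle outside the ganglion, where the dorsal branches of the spinal nerves pass.

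The 22523 probes of the bead array were read as intensities, and 9939 probes were tested, those detected (detection p-value under 0.05) on all 3 arrays of either group. Of these, 9055 were detected on all arrays of both groups, 506 qualified through vehicle/ACS alone and 378 through no sponge alone. A gene symbol was available for 7432 tested probes (7309 genes). Vehicle/ACS arrays detected 10335 to 11189 probes and no sponge arrays 10148 to 10746, and the median raw intensity was 111.3 to 116.4 in vehicle/ACS and 119.4 to 143.1 in no sponge. Correlations between arrays averaged 0.9875 within groups and 0.9858 between groups. The tissue label was checked against 15 sensory neuron markers, of which 9 were tested, with a summed intensity of 51351 to 52215 in vehicle/ACS and 48539 to 52939 in no sponge. Calca, which encodes the peptide CGRP, and Scn9a had probes that no array of either group detected, so that these genes cannot be judged here. None of the T and B lymphocyte markers was tested, and of 10 markers of oligodendrocytes and spinal cord 1 was tested.

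At a Benjamini-Hochberg adjusted p under 0.05 (limma, with a spread estimated over all 9 groups of the series), 59 of 9939 probes differed between vehicle/ACS and no sponge, which is 0.594% of those tested. Of these, 31 were higher in vehicle/ACS (0.312%) and 28 lower (0.282%), and 37 carried a gene symbol (20 higher, 17 lower). The changes were small. Only 4 of the 59 had a log2 fold change of 1 or more in size, and 22 were under 0.5. The lowest adjusted p was 0.00727, 34 of the 59 lay between 0.04 and 0.05, and 109 further probes lay between 0.05 and 0.1. The groups did not overlap for 58 of the 59, against 16% of all probes tested, but the 59 were chosen by p on these same values. Among the 59, 15 were tested only because all vehicle/ACS arrays detected them and 8 only because all no sponge arrays did, which leaves 36 that were detected throughout. At an unadjusted p under 0.05, 683 probes were higher (6.87%) and 745 lower (7.5%), where 497 in all would be met by chance. The number of calls depended on the shared spread and on single arrays. When the 6 arrays were fitted alone, no probe passed with limma (lowest adjusted p = 0.0554), and 1000 had an unadjusted p under 0.05. With the shared spread kept, no probe passed without vehicle/ACS rat 3 (limma, lowest adjusted p = 0.0805). The log2 fold changes are the same in the fit of the 6 arrays alone, so the direction of the 59 could not change there.

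**Figure D1:**
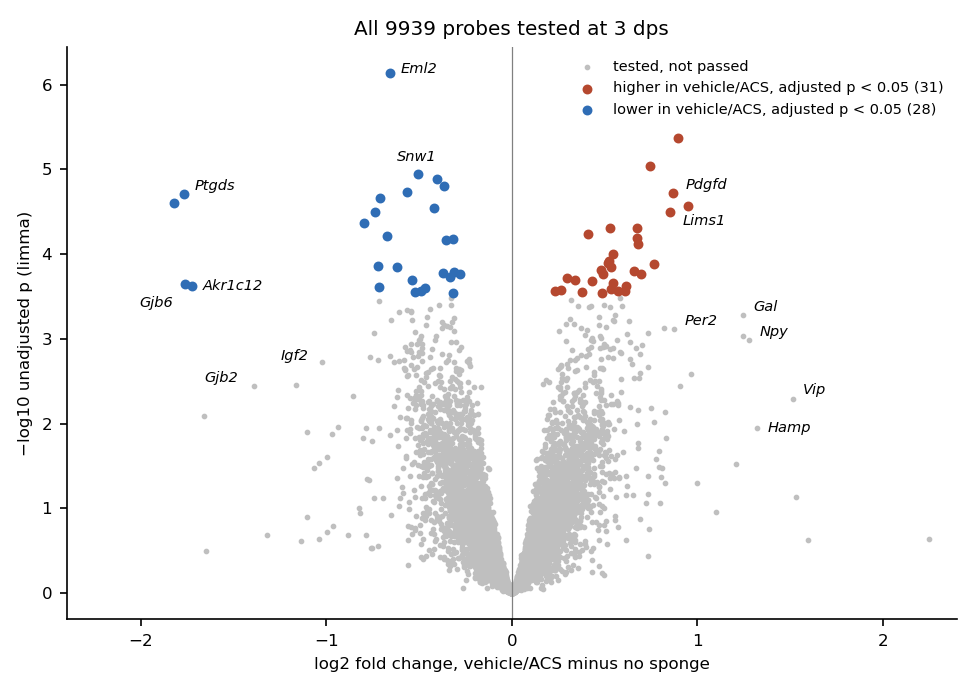
Each point is 1 of the 9939 probes tested at 3 dps, with the log2 fold change of vehicle/ACS minus no sponge on the x axis and minus log10 of the unadjusted limma p on the y axis. The 31 higher and 28 lower probes that passed are coloured, and Gal, Npy, Vip and Hamp lie far to the right without passing.

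The largest changes among the named genes that passed were decreases in vehicle/ACS of Ptgds, Gjb6 and Akr1c12, with all vehicle/ACS rats below all no sponge rats. Ptgds encodes lipocalin-type prostaglandin D2 synthase, an enzyme known to be abundant in the meninges, and its log2 intensity was 10.29, 10.17 and 10.34 in vehicle/ACS rats against 12.68, 11.37 and 12.04 in no sponge rats. The vehicle/ACS rats lay close together below the lowest no sponge rat, and no sponge rat 1 was the highest. The fitted log2 fold change was -1.77 ± 0.35 (SE), 3.4-fold lower in vehicle/ACS (limma, adjusted p = 0.0214). Without any single array the log2 fold change stayed between -2.10 and -1.44, and the adjusted p was 0.0734 without no sponge rat 1, 0.071 without vehicle/ACS rat 2 and 0.0805 without vehicle/ACS rat 3.

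Gjb6 encodes connexin 30, a gap junction subunit known from astrocytes and the meninges of the brain. Its log2 intensity was 4.64, 4.57 and 4.95 in vehicle/ACS, where no array detected it, against 6.83, 6.13 and 6.49 in no sponge, where all 3 did. All vehicle/ACS values were thus at background, and Gjb6 was at least 2.74-fold lower in vehicle/ACS (limma, adjusted p = 0.0491), a call that was lost without any 1 of the 6 arrays (adjusted p from 0.0645 to 0.135). Gjb6 was tested only because all no sponge arrays, where it is high, detected it. Gjb2, the gene of connexin 26 and the next gene to Gjb6 in the RefSeq annotation, was added after its values were seen. Its log2 intensity was 5.37, 5.63 and 6.38 in vehicle/ACS against 7.17, 6.77 and 7.60 in no sponge. The groups did not overlap, as in 16% of all probes tested, but with a log2 fold change of -1.39 ± 0.44 (SE) Gjb2 did not pass (limma, adjusted p = 0.138).

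Akr1c12 encodes an aldo-keto reductase, a family that reduces steroids and other carbonyl compounds. It measured 9.04, 7.42 and 7.35 log2 units in vehicle/ACS against 9.92, 9.86 and 9.21 in no sponge. Vehicle/ACS rat 1 stood apart from the other vehicle/ACS rats and close to the no sponge rats, without overlap. The log2 fold change was -1.72 ± 0.41 (SE, limma, adjusted p = 0.0491), and -2.28 without vehicle/ACS rat 1 (adjusted p = 0.00579), while the call was lost without no sponge rats 1 or 2 or vehicle/ACS rats 2 or 3.

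The promoters of Ptgds, Gjb6 and Gjb2 are shown, as the genes with the largest decreases and a neighbouring pair, 250 bases before to 50 after the start, from RefSeq (GRCr8): chr3:28682929-28683228 for Ptgds, chr15:35410089-35410388 for Gjb6 (the upstream of 2 listed starts) and chr15:35381904-35382203 for Gjb2, all on the minus strand. Capitals mark GGGCGG (the GC box) or TGACG (the half-site of the cyclic AMP response element), on either strand.
Ptgds: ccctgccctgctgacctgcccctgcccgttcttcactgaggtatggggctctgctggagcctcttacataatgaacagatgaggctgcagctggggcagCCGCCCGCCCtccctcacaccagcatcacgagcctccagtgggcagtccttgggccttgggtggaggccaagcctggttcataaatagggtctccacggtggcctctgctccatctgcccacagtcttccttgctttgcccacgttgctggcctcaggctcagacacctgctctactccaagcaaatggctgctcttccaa
Gjb6: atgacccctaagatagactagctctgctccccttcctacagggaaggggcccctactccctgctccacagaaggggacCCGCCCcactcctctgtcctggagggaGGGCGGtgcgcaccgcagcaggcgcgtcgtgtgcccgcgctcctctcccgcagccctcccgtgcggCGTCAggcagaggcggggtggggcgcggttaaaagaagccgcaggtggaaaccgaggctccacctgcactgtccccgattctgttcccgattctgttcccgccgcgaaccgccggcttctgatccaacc
Gjb2: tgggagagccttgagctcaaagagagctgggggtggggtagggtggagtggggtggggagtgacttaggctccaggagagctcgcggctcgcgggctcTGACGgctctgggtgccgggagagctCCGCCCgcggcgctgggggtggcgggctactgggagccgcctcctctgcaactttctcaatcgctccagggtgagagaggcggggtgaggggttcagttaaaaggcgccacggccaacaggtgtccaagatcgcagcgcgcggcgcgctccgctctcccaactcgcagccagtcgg
GGGCGG occurred in 33.1% and TGACG in 21.2% of all 33469 rat promoters of this length. Ptgds held overlapping GC boxes 151 and 147 bases before its start, Gjb6 had them at 172 and 145 and Gjb2 at 126. TGACG was found 79 bases before the Gjb6 start and 152 before that of Gjb2, and these letters were not in the Ptgds window. Such matches describe the sequence only. Of the 37 named genes that passed, 33 were in the promoter table.

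Other markers of meningeal and perineurial cells, the cells of the sheaths around ganglion and nerve, did not pass. Besides Ptgds, 7 were tested, of which 6 had a negative log2 fold change and none an unadjusted p under 0.05, with a median of -0.10 against -0.002 over all probes tested. The mean log2 level of these 7 was 7.00, 7.04 and 7.28 in vehicle/ACS and 7.11, 7.37 and 7.28 in no sponge, and the groups overlapped. Zic2, a transcription factor of meningeal and neural precursor cells, had a log2 fold change of -0.61 (adjusted p = 0.429) and Slc22a6, an organic anion transporter, -0.30 (adjusted p = 0.43), while Krt19, a keratin, had +0.39 (adjusted p = 0.418). None of these 3 passed. The list holds 25 genes, of which 21 were on the array and 6 were detected on no array, among them Slc6a13 and Tbx18. In bulk tissue, fewer cells of a type and less RNA per cell cannot be told apart, and how much sheath was dissected with each ganglion is not given in the sources used here.

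No gene of the insulin-like growth factor system passed. Igf2, a growth factor known to be made in the meninges and vessels, measured 7.58, 7.13 and 7.83 log2 units in vehicle/ACS against 8.72, 8.48 and 8.41 in no sponge. The groups were separate, as in 16% of all probes tested, and the log2 fold change of -1.02 ± 0.30 (SE) did not pass (limma, adjusted p = 0.102). Igfbp6, a binding protein with a preference for Igf2, had -0.75 (8.36, 8.70 and 9.42 against 9.48, 9.74 and 9.52, adjusted p = 0.23), and Plagl1, an imprinted transcription factor, -0.29 (adjusted p = 0.325). Of 11 genes of the system 7 had a negative and 4 a positive log2 fold change, 3 were lower and 0 higher at an unadjusted p under 0.05 (7.5% and 6.87% of all probes), and the median was -0.18. The mean level of the 11 was 8.35, 8.34 and 8.52 in vehicle/ACS and 8.65, 8.65 and 8.65 in no sponge.

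**Figure D2:**
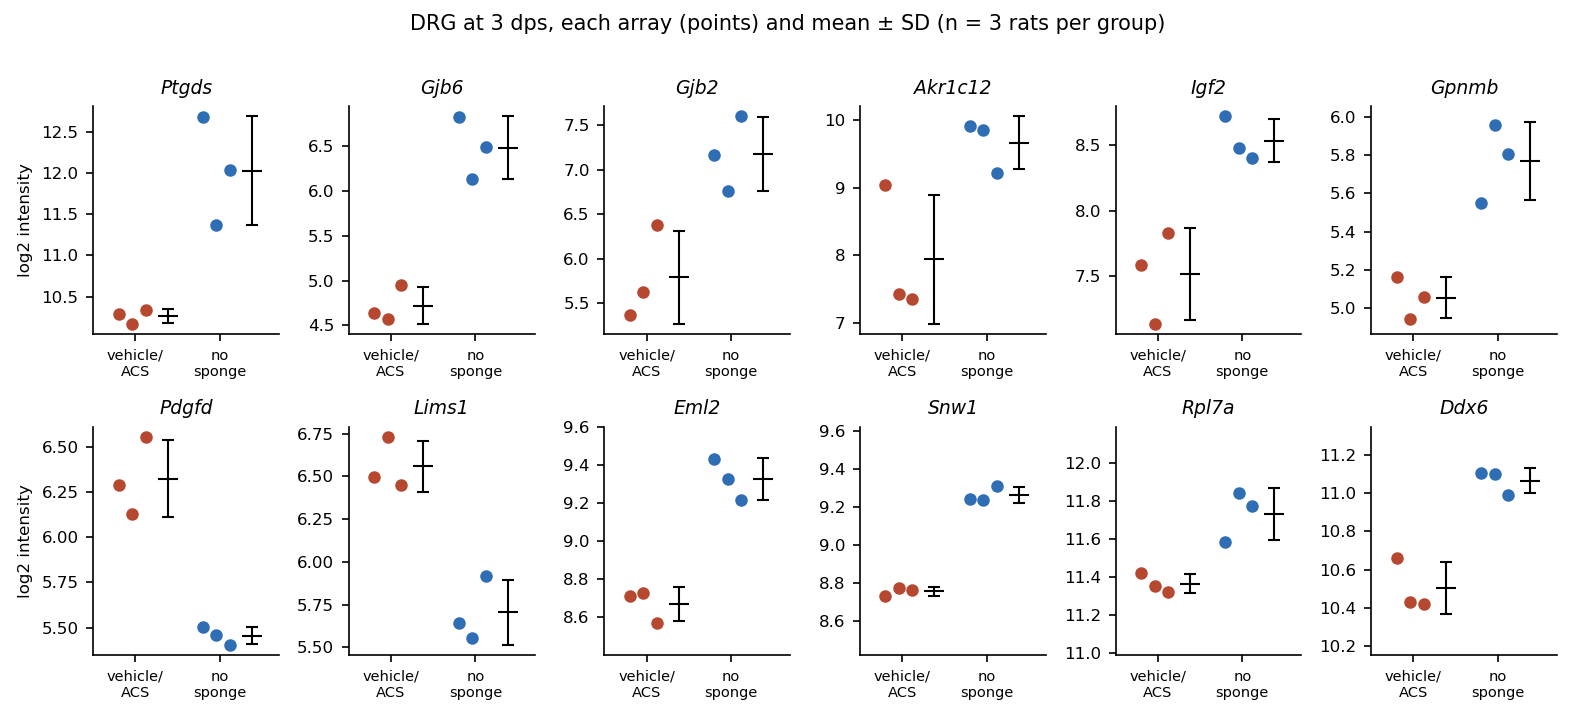
Log2 intensity of 12 genes in each DRG at 3 dps, vehicle/ACS at the left (red) and no sponge at the right (blue) of each panel, with the mean and SD beside the 3 rats of each group. In all 12 the groups do not overlap, but Gjb2 and Igf2 did not pass the adjusted test. The y axes differ between panels and do not start at 0.

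The lowest p-values among lower genes belonged to small decreases. Eml2, which encodes a microtubule-associated protein, had the lowest p of all probes. It measured 8.72, 8.73 and 8.57 log2 units in vehicle/ACS against 9.44, 9.33 and 9.22 in no sponge. The spread within each group was small beside the gap, and the log2 fold change was -0.66 ± 0.11 (SE, limma, adjusted p = 0.00727). Eml2 passed in 15 of 19 alternative settings, the most of any named gene. Ptgds passed in 13 of 19, Akr1c12 in 5 of 19 and Gjb6 in 3 of 18. Uso1, Polg2, Gorasp2, Psmc2, Ttc1 and Ppp2ca each passed in 3 of 19.

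Snw1, a cofactor of splicing and transcription, measured 8.73, 8.78 and 8.76 in vehicle/ACS against 9.24, 9.24 and 9.31 in no sponge (log2 fold change -0.51 ± 0.10 (SE), adjusted p = 0.0214). Ddx6, an RNA helicase of processing bodies, measured 10.66, 10.43 and 10.42 against 11.11, 11.10 and 10.99 (-0.56, adjusted p = 0.0214). Rpl7a, a protein of the large ribosomal subunit, measured 11.42, 11.35 and 11.32 against 11.58, 11.84 and 11.77 (-0.36, adjusted p = 0.0214). In all 3 every vehicle/ACS rat lay below every no sponge rat. Rpl21, also of the large subunit, Adat2, a subunit of the enzyme that edits transfer RNA, and Med25, a subunit of the Mediator complex, fell by 0.37, 0.49 and 0.35 on the log2 scale (adjusted p = 0.0453, 0.0491 and 0.0294).

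The remaining lower genes were Golgi, sorting and turnover genes and a few others. Uso1, a tether of Golgi vesicles, had a log2 fold change of -0.47, and Gorasp2, a Golgi stacking protein, -0.28, although a second Gorasp2 probe gave 0.04 (adjusted p = 0.862). Chmp2a, a subunit of the ESCRT-III membrane-scission complex, had -0.32, and Ubr4, a ubiquitin ligase, -0.33. Polg2, the accessory subunit of the mitochondrial DNA polymerase, had -0.52, with adjusted p between 0.0294 and 0.0491 for these 5 genes. Pip4k2c, a phosphoinositide kinase, was at background in all vehicle/ACS arrays and was at least 1.33-fold lower there (adjusted p = 0.0294). Gpnmb, a membrane glycoprotein of phagocytes, measured 5.16, 4.94 and 5.05 in vehicle/ACS, where 2 of 3 arrays detected it, against 5.55, 5.96 and 5.81 in no sponge (-0.72, adjusted p = 0.0453). Pip4k2c and Gpnmb were tested only because all no sponge arrays, where they are high, detected them.

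Among named genes that passed as higher, the largest increases were those of Pdgfd and Lims1. Pdgfd, a ligand of the PDGF beta receptor, measured 6.29, 6.13 and 6.55 log2 units in vehicle/ACS against 5.50, 5.46 and 5.41 in no sponge. All vehicle/ACS rats were above all no sponge rats, which were nearly equal, and the log2 fold change was 0.87 ± 0.17 (SE), 1.83-fold (limma, adjusted p = 0.0214). Lims1, an adaptor between integrins and the cytoskeleton, measured 6.498, 6.729 and 6.447 against 5.64, 5.56 and 5.92, 0.85 ± 0.17 higher in vehicle/ACS on the log2 scale (SE, adjusted p = 0.0214). Its groups were also separate. Nfatc3, a transcription factor controlled by calcineurin, was 0.68 higher on the log2 scale (adjusted p = 0.0274), Mthfd2l, a mitochondrial folate enzyme, 0.68 (adjusted p = 0.0316), and Phf23, a PHD finger protein, 0.53 (adjusted p = 0.0274). Hltf, a helicase-like factor, was 0.66 higher (adjusted p = 0.0453), while its other probe gave 0.33 (adjusted p = 0.389). The Hltf probe that passed was detected on 2 of 3 no sponge arrays and was tested only through vehicle/ACS, where it is high.

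For 5 higher genes no array of the no sponge group detected the probe, so that only a bound can be given. They were tested only because all vehicle/ACS arrays, where they are high, detected them. Cog3, a subunit of the Golgi complex COG, was at least 1.47-fold higher in vehicle/ACS, Stard8 at least 1.27-fold, Mal2, a protein of apical transport, at least 1.19-fold, Mybl2, a cell cycle transcription factor, at least 1.11-fold and RT1-T18, a class I-like histocompatibility gene, at least 1.05-fold (adjusted p from 0.0453 to 0.0491). Apln, the gene of the peptide apelin, was detected on 1 of 3 no sponge arrays and was 0.49 higher on the log2 scale (adjusted p = 0.0491). Apln, too, was tested only through vehicle/ACS, where it is high. Of the 59 probes, 21 had a mean log2 intensity under 6 in both groups, where the lowest value detected on these arrays was 4.97 to 5.17.

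Other higher genes were concerned with protein turnover, trafficking and signalling. Psmc2, an ATPase of the proteasome, measured 11.84, 11.84 and 11.87 log2 units in vehicle/ACS against 11.55, 11.51 and 11.47 in no sponge, a log2 fold change of 0.34 (adjusted p = 0.0478). Tmem30a, a subunit of phospholipid flippases, was higher by 0.41 (adjusted p = 0.0294), Cul5, the scaffold of a ubiquitin ligase, by 0.43 (adjusted p = 0.0478), and Ap2a1, a subunit of the clathrin adaptor AP-2, by 0.53 (adjusted p = 0.0491). Ppp2ca, the catalytic subunit of phosphatase 2A, was higher by 0.24, the adaptor Ttc1 by 0.26, Men1, which encodes menin, by 0.38 (adjusted p = 0.0491 each), and Cnppd1, a cyclin-domain protein, by 0.53 (adjusted p = 0.0453). None of the 20 named genes that were higher belonged to any of the gene lists described here.

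Peptide genes of injured neurons gave large positive log2 fold changes, and none passed. Gal, the gene of galanin, measured 9.55, 8.11 and 9.15 log2 units in vehicle/ACS against 7.34, 6.80 and 8.94 in no sponge. No sponge rat 3 lay among the vehicle/ACS rats, and the log2 fold change was 1.24 ± 0.32 (SE, limma, adjusted p = 0.0664). Npy, the gene of neuropeptide Y, measured 9.70, 9.03 and 9.41 against 8.01, 7.05 and 9.25, and the fitted difference was 1.28 log2 units with a standard error of 0.35 (adjusted p = 0.0852). Vip, the gene of vasoactive intestinal peptide, measured 8.93, 6.30 and 7.75 against 5.33, 5.33 and 7.78, with 1.52 ± 0.50 (SE, adjusted p = 0.162). In both, no sponge rat 3 again overlapped the vehicle/ACS rats.

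Ucn, the gene of urocortin, had a log2 fold change of 0.83 (6.79, 5.22 and 6.10 in vehicle/ACS against 4.508, 4.999 and 6.12 in no sponge, adjusted p = 0.18). Cck, the gene of cholecystokinin, had 0.51 (adjusted p = 0.259), Cartpt 0.54 (adjusted p = 0.316), and Bdnf, the gene of a neurotrophin released by nociceptors, 0.41 (adjusted p = 0.257). Calcb, the gene of beta-CGRP and a peptide of uninjured nociceptors, had -0.29 (11.18, 10.81 and 10.72 against 11.28, 11.17 and 11.14, adjusted p = 0.265). Of 16 peptide genes tested, none passed, 7 were higher and 1 lower at an unadjusted p under 0.05 (6.87% and 7.5% of all probes), and the median was 0.25.

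Promoters of the 4 peptide genes with the largest fold changes among these are shown, since cyclic AMP response elements are known to drive several peptide genes. They lie at chr1:210084523-210084822 (minus strand) for Gal, chr1:44470230-44470529 (plus strand) for Vip, chr6:30957836-30958135 (plus strand) for Ucn and chr4:80211861-80212160 (plus strand) for Npy (RefSeq, GRCr8), with the same capitals.
Gal: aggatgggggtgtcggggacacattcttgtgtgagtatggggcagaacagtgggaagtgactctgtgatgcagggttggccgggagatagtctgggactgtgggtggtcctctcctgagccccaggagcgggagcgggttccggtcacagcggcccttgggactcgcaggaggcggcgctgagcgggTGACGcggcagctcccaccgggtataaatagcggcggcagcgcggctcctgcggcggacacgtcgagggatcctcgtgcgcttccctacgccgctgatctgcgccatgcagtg
Vip: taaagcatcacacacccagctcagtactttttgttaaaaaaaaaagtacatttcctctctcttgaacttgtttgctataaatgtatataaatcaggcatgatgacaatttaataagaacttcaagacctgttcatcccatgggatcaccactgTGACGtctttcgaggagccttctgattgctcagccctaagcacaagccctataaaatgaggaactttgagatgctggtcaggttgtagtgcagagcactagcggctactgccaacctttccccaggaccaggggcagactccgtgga
Ucn: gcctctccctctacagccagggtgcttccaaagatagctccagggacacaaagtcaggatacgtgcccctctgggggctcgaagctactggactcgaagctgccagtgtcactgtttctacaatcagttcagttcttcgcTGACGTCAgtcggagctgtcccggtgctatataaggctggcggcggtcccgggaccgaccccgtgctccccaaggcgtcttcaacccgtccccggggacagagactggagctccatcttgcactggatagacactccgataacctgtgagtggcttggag
Npy: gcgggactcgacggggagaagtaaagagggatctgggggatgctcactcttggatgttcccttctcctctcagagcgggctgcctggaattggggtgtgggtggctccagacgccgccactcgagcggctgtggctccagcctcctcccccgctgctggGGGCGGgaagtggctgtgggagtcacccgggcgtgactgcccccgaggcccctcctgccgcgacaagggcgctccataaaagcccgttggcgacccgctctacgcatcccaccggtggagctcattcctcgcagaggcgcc
TGACG stood 63 bases before the start in Gal and 97 in Vip, and Ucn held the full element TGACGTCA, whose 2 overlapping half-sites began 110 and 107 bases before its start. The full element occurred in 1.83% of all promoters. In Npy these letters were not in the window, which held a GC box at 91 bases.

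Injury genes outside the peptides also had mostly positive log2 fold changes. Atf3, the transcription factor of injured neurons, measured 7.81, 6.61 and 7.15 in vehicle/ACS against 6.20, 5.73 and 7.43 in no sponge, where rat 3 was above vehicle/ACS rats 2 and 3 (log2 fold change 0.74, adjusted p = 0.321). Flrt3, an adhesion protein of regenerating neurons, had 0.53 (adjusted p = 0.33). Reg3b, a secreted lectin of injured neurons, had 0.79 (7.04, 6.07 and 5.93 against 5.53, 5.44 and 5.70, adjusted p = 0.255), and its groups did not overlap, as in 16% of all probes tested. Of 29 injury and regeneration genes, a list that also holds Gal, Npy and Vip, none passed. At an unadjusted p under 0.05, 6 were higher and 0 lower (6.87% and 7.5% of all probes). A positive log2 fold change was found in 26, and the median was 0.22. The positive share was 49.6% over all probes tested. Hamp, the gene of hepcidin, an iron-regulating peptide of the acute phase, had a log2 fold change of 1.32 (8.42, 6.83 and 7.77 against 5.32, 5.41 and 8.32, adjusted p = 0.211), with no sponge rat 3 high as well. Serpina3n, an acute-phase protease inhibitor, was detected on all vehicle/ACS arrays and no no sponge array, at least 1.41-fold higher without passing (adjusted p = 0.118). It was tested only through vehicle/ACS, where it is high.

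**Figure D3:**
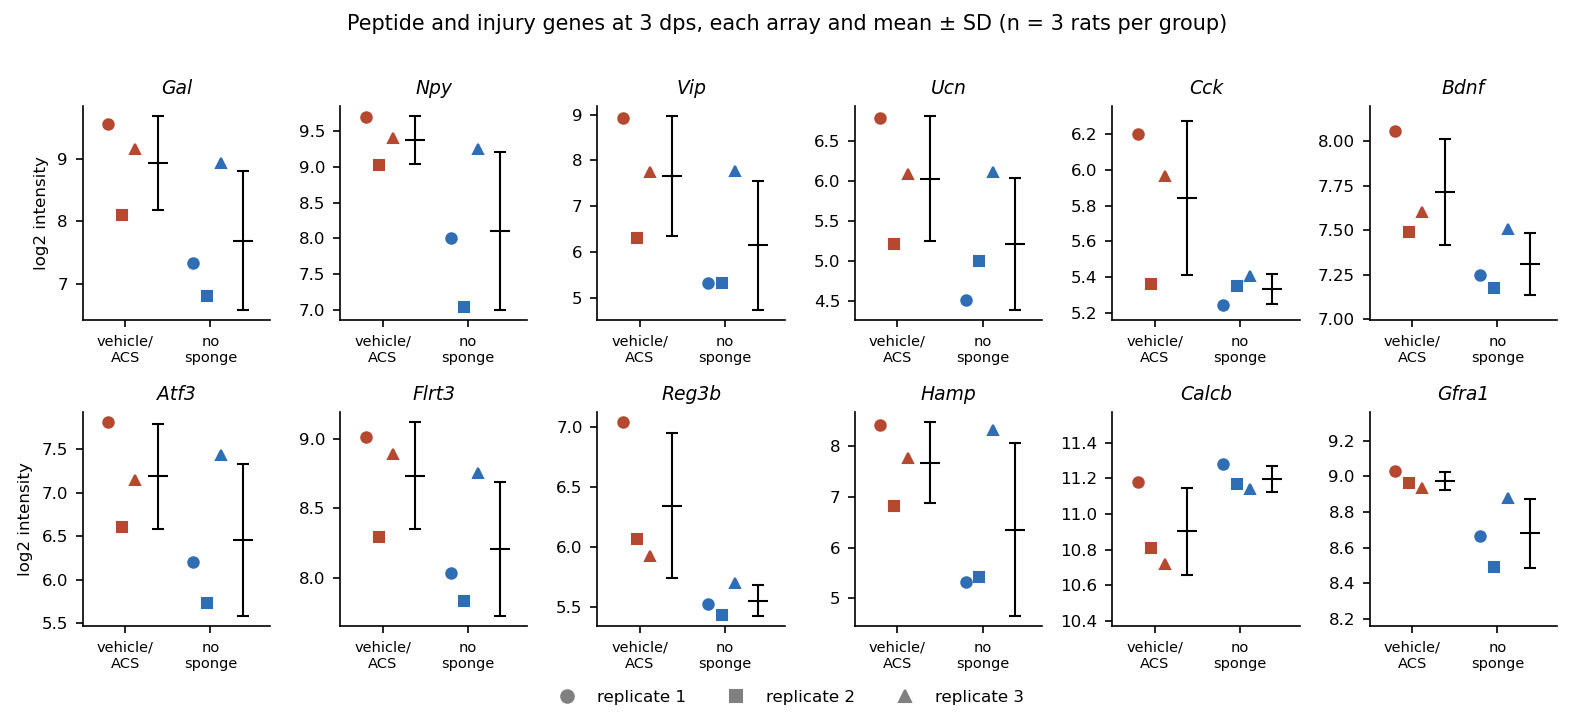
Log2 intensity of 12 peptide, injury and trophic genes in each DRG at 3 dps, vehicle/ACS at the left (red) and no sponge at the right (blue), with mean and SD. Circles, squares and triangles are replicates 1, 2 and 3, and the blue triangle (no sponge rat 3) lies with the vehicle/ACS rats in Gal, Npy, Vip, Ucn, Atf3, Flrt3 and Hamp. The y axes differ between panels and do not start at 0.

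No sponge rat 3 was often high in the peptide and injury lists, which share Gal, Npy and Vip. It was the highest of the 3 no sponge rats in 10 of 16 peptide genes (62.5%) and in 20 of 29 injury genes (69%), against 32.1% of all probes tested. It reached the vehicle/ACS range while both other no sponge rats were below it in 8 of 16 peptide genes (50%) and 12 of 29 injury genes (41.4%), against 5.44% of all probes. Without this rat the log2 fold change was 1.87 for Gal (limma, adjusted p = 0.000515), 1.86 for Npy (adjusted p = 0.0059), 2.33 for Vip (adjusted p = 0.0216), 1.28 for Ucn (adjusted p = 0.0284) and 2.31 for Hamp (adjusted p = 0.00443). Without no sponge rat 2 instead, Gal had 0.80 (adjusted p = 0.403) and Npy 0.75 (adjusted p = 0.485). Without vehicle/ACS rat 1, Gal had 0.94 (adjusted p = 0.16) and Vip 0.88 (adjusted p = 0.395). Vip and Gal also varied among vehicle/ACS rats, with rat 2 the lowest in each, and without that rat Gal passed (adjusted p = 0.04). No source used here gives a reason to leave out any of these rats.

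Of 13 neurotrophic factor and receptor genes none passed, and Gfra1, Gfra3 and Bdnf were higher at an unadjusted p under 0.05 (6.87% of all probes), with a list median of 0.05. Gfra1, the GDNF co-receptor, measured 9.03, 8.96 and 8.93 log2 units in vehicle/ACS against 8.67, 8.49 and 8.88 in no sponge, and Gfra3, the artemin co-receptor, 9.47, 9.37 and 9.34 against 8.99, 9.32 and 8.99. In both the groups were separate, as in 16% of all probes tested, with log2 fold changes of 0.30, and neither passed (adjusted p = 0.138 and 0.251).

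Genes of neurons as such were close between groups. Of 34 genes of neuronal cytoskeleton and vesicle release, none passed. At an unadjusted p under 0.05, 2 were higher and 3 lower (6.87% and 7.5% of all probes), and the median was 0.01. Snap25, a protein of vesicle fusion, was 0.35 higher on the log2 scale (adjusted p = 0.112) and Sncg, gamma-synuclein, 0.23 lower (adjusted p = 0.103). Both were without overlap, as were 16% of all probes tested. Nefl, the light neurofilament, had a log2 fold change of -0.28 (adjusted p = 0.268) and Sv2c, a synaptic vesicle protein, -0.49 (adjusted p = 0.13). Among 11 nociceptor and touch channels, the heat channel Trpv1 had -0.23 (adjusted p = 0.27), Mrgprx3, a receptor of itch neurons, -0.57 (adjusted p = 0.211), and the channel Trpv2 0.26 (9.40, 9.26 and 9.33 in vehicle/ACS against 9.15, 8.95 and 9.11 in no sponge, adjusted p = 0.156). Scn10a, the sodium channel Nav1.8 of nociceptors, had -0.14 (adjusted p = 0.459). Of 22 potassium channels none passed. Kcna2 (0.45) and Kcnk1 (0.33) were among 3 higher at an unadjusted p under 0.05 (6.87% of all probes), and Kcnk2 (-0.36) was the 1 lower (7.5% of all probes).

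Glia were also close. Of 14 genes of satellite and reactive glia none had an unadjusted p under 0.05, and Fabp7, a fatty acid carrier of satellite glia, measured 11.96, 11.22 and 10.90 in vehicle/ACS against 12.20, 11.85 and 11.29 in no sponge, with overlap (log2 fold change -0.42, adjusted p = 0.504). Of 16 myelin and node genes, Cntn1, the adhesion protein contactin, had a log2 fold change of 0.43 (9.81, 9.80 and 9.61 against 9.49, 9.22 and 9.24, adjusted p = 0.0594) and Cldn19, a tight junction protein of Schwann cells, -0.36 (adjusted p = 0.16). Neither passed, although both were separate between groups, as were 16% of all probes tested.

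Matrix and fibroblast genes mostly had negative log2 fold changes, and none passed. Of 32 genes of matrix glycoproteins and fibroblasts, 25 had a negative log2 fold change, where 49.6% of all probes tested had a positive one. At an unadjusted p under 0.05, 3 were lower, near the 7.5% of all probes, and 0 were higher. The median was -0.23. Col1a1, the gene of type I collagen, measured 7.05, 7.01 and 7.48 in vehicle/ACS against 7.66, 7.82 and 7.78 in no sponge (-0.57, adjusted p = 0.195). Its groups did not overlap, as in 16% of all probes tested. Ccn1, a matricellular protein, had -0.94 (5.94, 6.65 and 7.41 against 7.44, 7.90 and 7.48, adjusted p = 0.211), and Gsn, the actin-severing protein gelsolin, -0.58 (adjusted p = 0.11). Adamts2, the protease that trims procollagen, had -0.85 (adjusted p = 0.156), Col8a1, a short-chain collagen of vessels, -0.99 (adjusted p = 0.265), and Col4a1, of basement membranes, -0.28 (adjusted p = 0.295).

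Vehicle/ACS rat 1 was low for fibroblast markers. Dcn, decorin, measured 11.64, 11.96 and 12.60 in vehicle/ACS against 12.19, 12.62 and 12.82 in no sponge, and Ogn, osteoglycin, 8.52, 9.29 and 10.13 against 9.65, 10.54 and 9.52. The groups overlapped in both (adjusted p = 0.313 and 0.383), as they did in Pdgfra, the PDGF alpha receptor (-0.52, adjusted p = 0.477). The 7 fibroblast markers, all tested, had a median of -0.47 and a summed intensity of 4954 to 11323 in vehicle/ACS and 7716 to 10783 in no sponge. Of 7 endothelial markers, 4 were tested, with a summed intensity of 1150 to 1313 in vehicle/ACS and 1468 to 1602 in no sponge, without overlap, and Cdh5 was detected on no array. The wider list of 20 endothelial and vascular genes had 13 positive and 7 negative log2 fold changes, a median of 0.05 and summed intensities that overlapped, 4536 to 5327 in vehicle/ACS and 4918 to 5296 in no sponge. Egfl7, a secreted protein of endothelium, had a log2 fold change of -0.66 (5.10, 5.57 and 5.39 against 5.78, 6.05 and 6.20, adjusted p = 0.0983) and Cldn5, the tight junction protein of the blood-nerve barrier, -0.31 (9.91, 9.71 and 9.92 against 10.20, 10.18 and 10.11, adjusted p = 0.255). The part of fibroblast and endothelial RNA in the lower genes was not tested.

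No gene of the immune lists passed as higher in vehicle/ACS at 3 dps. Of 24 macrophage and phagocyte genes, Gpnmb fell and was the 1 that passed (0.594% of all probes passed). In 17 the log2 fold change was negative, where 49.6% of all probes tested had a positive one, and the median was -0.12. Laptm5, a lysosomal protein of blood cells, had -0.79 (6.62, 6.07 and 6.87 in vehicle/ACS against 7.50, 7.38 and 7.05 in no sponge, adjusted p = 0.211), and Clec4a1, a lectin receptor, -0.66 (adjusted p = 0.221). Aif1, the macrophage protein Iba1, measured 9.15, 9.18 and 9.98 against 9.32, 9.62 and 9.91, with overlap (-0.18, adjusted p = 0.773). Ctsd, a lysosomal protease, had 0.25 (adjusted p = 0.332). The 5 tested of 9 macrophage markers summed to 738 to 1239 in vehicle/ACS and 817 to 1160 in no sponge, and Cd68 and Csf1r were not on the array under these symbols.

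Of 15 complement genes none passed and 1 was higher at an unadjusted p under 0.05, Cfi, the complement factor I protease (0.28, adjusted p = 0.285). Of 15 chemokine genes, Ccl2, which attracts monocytes, had a log2 fold change of 0.61 (9.29, 8.82 and 8.68 against 8.16, 7.99 and 8.80, adjusted p = 0.321) and Ccl27 -0.48 (adjusted p = 0.13). The 8 tested genes of MHC class II presentation had a median of 0.30 and none had an unadjusted p under 0.05. S100a8, a neutrophil protein, measured 7.30, 7.18 and 7.16 against 8.19, 7.29 and 8.52 (-0.79, adjusted p = 0.582).

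Most ribosomal protein genes had a negative log2 fold change. Of 56 tested, Rpl7a and Rpl21 passed, against 0.594% of all probes. At an unadjusted p under 0.05, 11 were lower and 0 higher (7.5% and 6.87% of all probes). A negative log2 fold change was found in 38, where 49.6% of all probes tested had a positive one, but the median was only -0.06. The lowest value, -1.65 for Rpl30, came from a single high array, no sponge rat 2 at 10.83 (adjusted p = 0.687). Rpsa, Rps18 and Rpl35a had log2 fold changes of -0.28, -0.27 and -0.23 (adjusted p = 0.0917, 0.09 and 0.101). Of 54 genes of the respiratory chain and ATP synthase none passed. At an unadjusted p under 0.05, 9 were lower and 2 higher (7.5% and 6.87% of all probes), and the median was -0.05. Ndufs5, a subunit of complex I, had -0.20 (adjusted p = 0.138), Atp5mc2, of ATP synthase, -0.24 (adjusted p = 0.195), and Cycs, cytochrome c, 0.29 (12.99, 13.12 and 13.06 in vehicle/ACS against 12.85, 12.79 and 12.65 in no sponge, adjusted p = 0.0725). Heat shock and unfolded protein genes had a median of -0.02 over 28, with Cryab, a small heat shock protein, at -0.35 (adjusted p = 0.175), Dnajb9, a chaperone of the endoplasmic reticulum, at 0.26 (adjusted p = 0.11), and Atf4, the factor of the integrated stress response, at 0.28 (adjusted p = 0.238).

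Clock genes mostly had positive log2 fold changes. Per2, a period gene of the circadian clock, measured 8.38, 8.73 and 9.31 in vehicle/ACS against 7.30, 8.05 and 8.45 in no sponge, with vehicle/ACS rat 1 below no sponge rat 3 (log2 fold change 0.88 ± 0.23 (SE), adjusted p = 0.0755). Tef, a clock-controlled transcription factor, had 0.47 (adjusted p = 0.251) and Per1 0.33 (adjusted p = 0.403), both without overlap, as were 16% of all probes tested. Of 13 clock genes 11 had a positive log2 fold change, against 49.6% of all probes tested, and none passed. At an unadjusted p under 0.05, 2 were higher and 0 lower (6.87% and 7.5% of all probes). The mean level of the 13 was 7.14, 7.17 and 7.32 in vehicle/ACS and 6.92, 7.06 and 7.07 in no sponge, and the hour at which each rat was killed is not given in the sources used here.

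Most muscle genes, checked as markers of the tissue around the ganglion, were near background. Of 12 skeletal muscle fibre markers 3 were tested, with a summed intensity of 287 to 627 in vehicle/ACS, highest in rat 1, and 331 to 426 in no sponge, and Myh2, Myh4 and Myl11 were detected on no array. Tnnc2, fast troponin C, measured 6.79, 5.62 and 5.32 in vehicle/ACS against 5.14, 5.05 and 5.31 in no sponge (log2 fold change 0.74, adjusted p = 0.549), and Tnnc1, slow troponin C, had 0.37 (adjusted p = 0.164). Of 7 genes that the study's text names for this comparison, Igf2 and Tnnc2 were tested. Frzb, a secreted Wnt antagonist, was detected on 0 vehicle/ACS and 2 no sponge arrays (mean log2 intensity 4.75 and 5.13) and Sema6b, a semaphorin, on 0 and 1 (4.73 and 5.02). Tnnt3, fast troponin T, was detected on 2 and 1 arrays (5.18 and 4.77), Myh7, slow myosin, on 1 and 0 (5.10 and 4.69), and Angpt1, angiopoietin 1, on 2 and 2 (5.10 and 5.07). These 5 lie at the detection limit and were not tested.

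**Figure D4:**
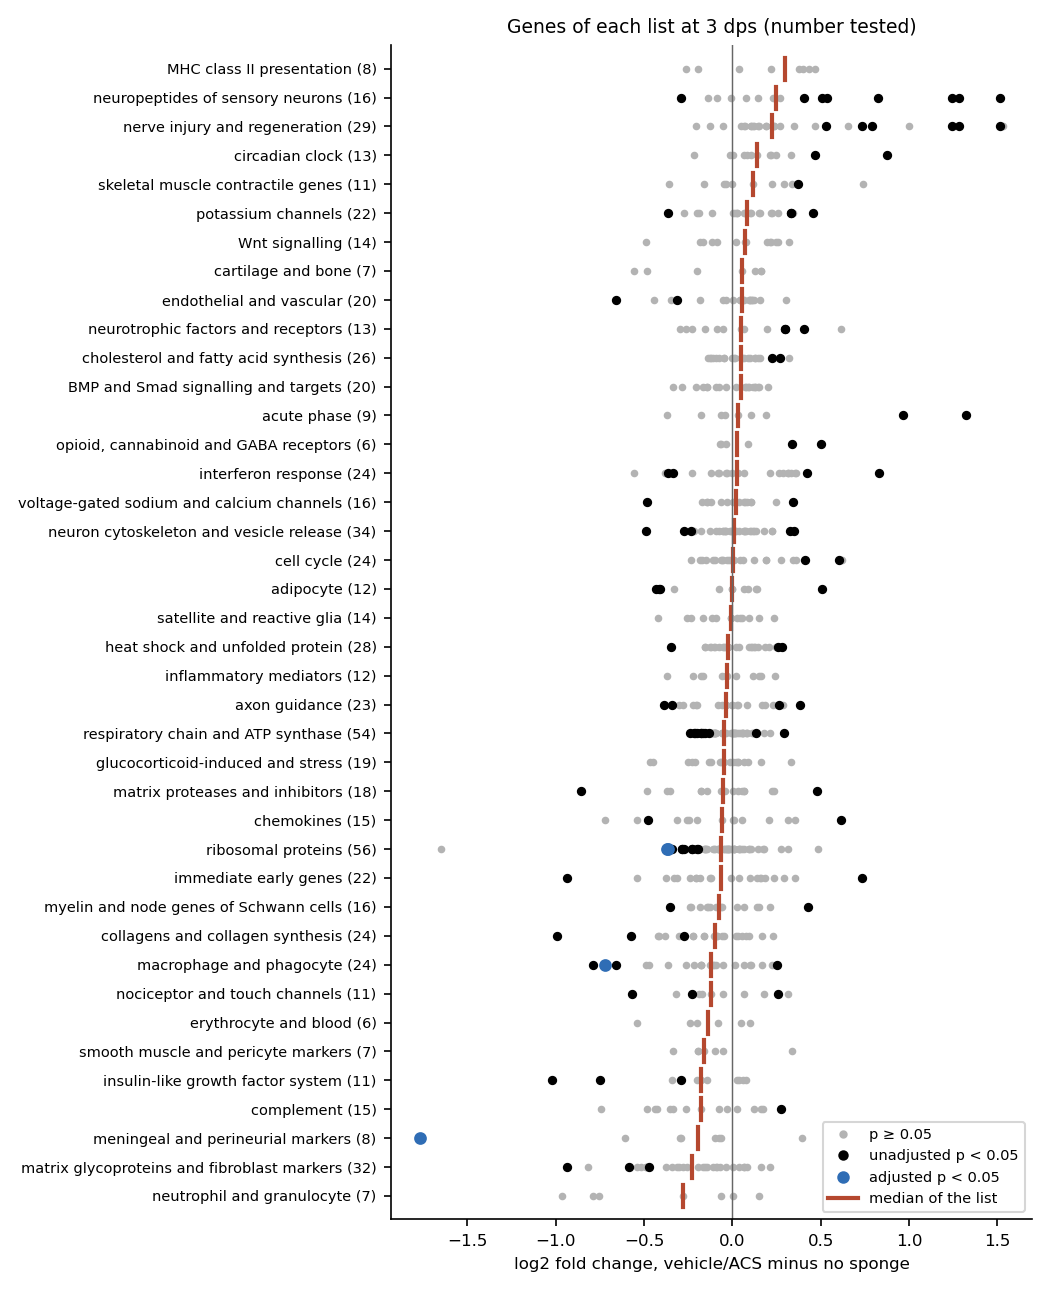
Log2 fold change of vehicle/ACS minus no sponge at 3 dps for each tested gene of the gene lists (number tested in brackets), ordered by the list's median (red bar). Blue points passed the adjusted test, black points had an unadjusted p under 0.05, and among these lists, each with at least 5 genes tested, the medians lie between 0.30 for MHC class II presentation and -0.28 for neutrophil and granulocyte genes.

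The rhBMP-2/ACS rats, which also carried the sponge, offer a second view of the same operation, but each comparison with them shares a group with the first. Against no sponge, 854 probes passed (8.59%). Of the 59 calls, 11 passed in the same direction and 0 in the other, and the rest did not pass. The no sponge arrays that served to choose the 59 enter this comparison too, which favours the same direction. Among the 11 were Eml2 (log2 fold change -0.35, adjusted p = 0.0358), Uso1 (-0.48, adjusted p = 0.00854), Med25 (-0.35, adjusted p = 0.00543) and Nfatc3 (0.69, adjusted p = 0.00367). Ptgds averaged 10.99 ± 0.24 log2 units in rhBMP-2/ACS (SD, n = 3), against 10.27 ± 0.09 in vehicle/ACS and 12.03 ± 0.66 in no sponge. Its difference from no sponge in rhBMP-2/ACS was -1.04 (adjusted p = 0.0572). Npy differed by 1.43 between rhBMP-2/ACS and no sponge and passed (adjusted p = 0.0127), and Gal by 0.85 (adjusted p = 0.0896).

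Some of the genes differed between rhBMP-2/ACS and vehicle/ACS. Pdgfd averaged 5.49 ± 0.11 in rhBMP-2/ACS, 6.32 ± 0.21 in vehicle/ACS and 5.46 ± 0.05 in no sponge, and was lower in rhBMP-2/ACS than in vehicle/ACS (log2 fold change -0.83, adjusted p = 0.00246). Gjb2, in contrast to its low level in vehicle/ACS, averaged 7.90 ± 1.13 in rhBMP-2/ACS, and was 2.11 log2 units above vehicle/ACS (adjusted p = 0.00277). Gpnmb and Rpl7a were also higher in rhBMP-2/ACS than in vehicle/ACS, by 0.72 (adjusted p = 0.00497) and 0.34 (adjusted p = 0.00277). In all, 1207 probes passed against vehicle/ACS (12.1%), among them 24 of the 59 calls. The vehicle/ACS arrays that served to choose the 59 enter this comparison too, so the choice itself can raise that share. In 51 of the 59 the rhBMP-2/ACS mean lay between the means of the other groups.

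At 1 dps, vehicle/ACS against no sponge (n = 4 each) gave no probe past the adjusted test in limma, with 373 at an unadjusted p under 0.05 and a lowest adjusted p of 0.395. No difference of the effect between 3 and 1 dps passed either (lowest adjusted p = 0.183, 921 probes at an unadjusted p under 0.05). At 7 dps (n = 4 each) 1050 probes passed (10.6%), of which 611 were higher (6.15%) and 439 lower (4.42%) in vehicle/ACS. None of the 59 probes passed at 7 dps in the same direction and 3 passed in the other, Rpl7a (log2 fold change 0.37, adjusted p = 0.000149), Rpl21 (0.24, adjusted p = 0.0388) and Apln (-0.46, adjusted p = 0.00405). A test of the change of effect from 3 to 7 dps passed for 406 probes (4.08%). The effect at 3 dps was the higher in 109 (1.1%) and the lower in 297 (2.99%). The same test passed for 27 of the 59. These were chosen for their effect at 3 dps, which enters the test, so the choice itself can raise that share. With array medians equalized in place of quantiles, the split of all such differences was 14 higher and 383 lower. At 3 dps alone it was 3 higher and 14 lower, in place of 31 and 28.

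At 7 dps Gal, Npy and Vip passed the test and Ptgds did not, and 5 of 16 peptide genes passed in all. Ptgds averaged 11.16 ± 0.65 in vehicle/ACS and 11.83 ± 0.32 in no sponge at 1 dps, and 12.33 ± 0.55 in vehicle/ACS and 12.87 ± 0.70 in no sponge at 7 dps (SD, n = 4 each), with differences of -0.67 and -0.54 that did not pass (adjusted p = 1.0 and 0.273), and the effect at 3 dps was not shown to differ from that at 7 dps (difference -1.23, adjusted p = 0.126). Pdgfd had -0.06 at 7 dps (adjusted p = 0.841), which differed from 3 dps by 0.93 (adjusted p = 0.0171). Npy was 3.19 log2 units higher in vehicle/ACS at 7 dps (10.87 ± 0.08 in vehicle/ACS and 7.68 ± 0.22 in no sponge, adjusted p = 3.78e-08), which was more than at 3 dps by 1.91 (adjusted p = 0.0173). Vip was higher by 3.41 (8.10 ± 0.37 in vehicle/ACS and 4.69 ± 0.27 in no sponge, where 1 of 4 arrays detected it, adjusted p = 4.88e-06) and Gal by 1.89 (9.16 ± 0.32 in vehicle/ACS and 7.27 ± 0.07 in no sponge, adjusted p = 3.31e-05). For these 2 the difference between 3 and 7 dps did not pass (adjusted p = 0.0989 for Vip and 0.418 for Gal).

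**Figure D5:**
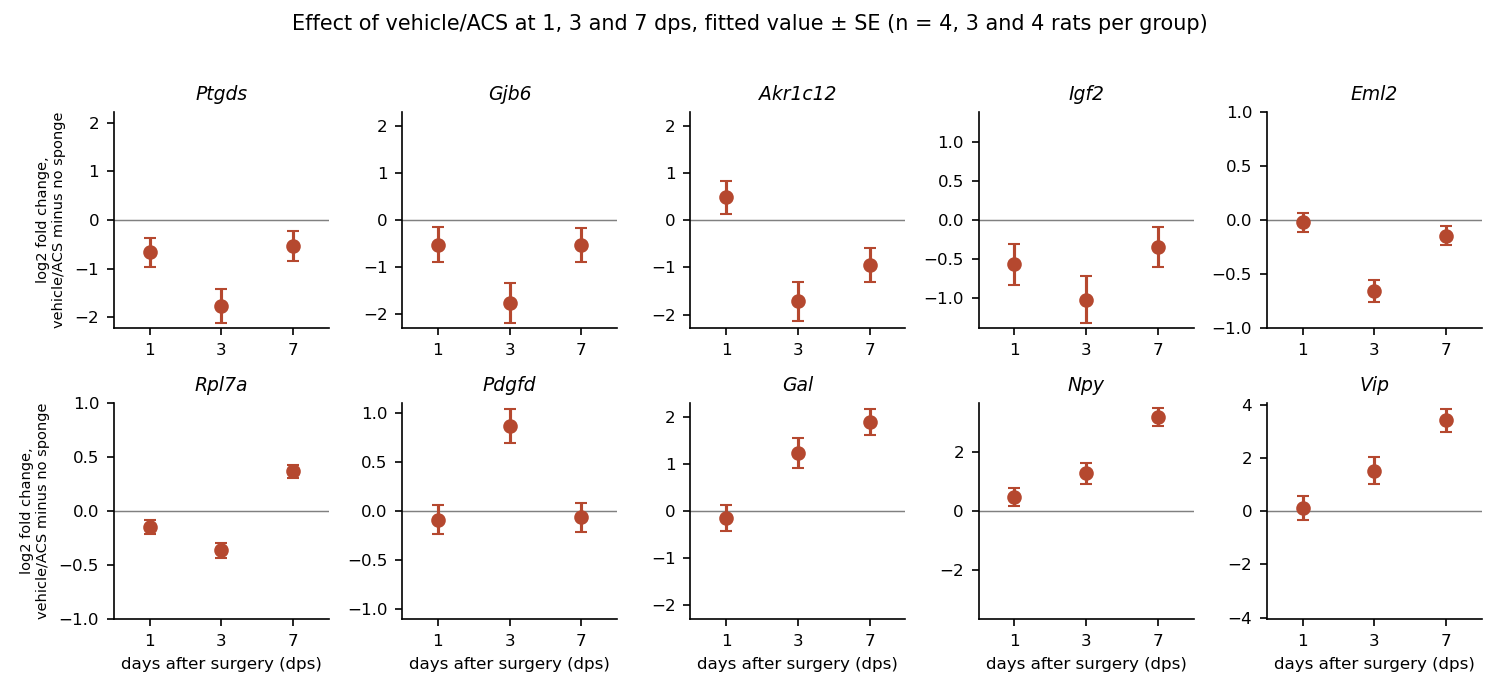
Fitted log2 fold change of vehicle/ACS minus no sponge, with its standard error, at 1, 3 and 7 dps for 10 genes. Ptgds, Gjb6, Akr1c12, Igf2, Eml2 and Pdgfd are farthest from 0 at 3 dps, whereas Gal, Npy and Vip are farthest at 7 dps and Rpl7a lies below 0 at 3 dps and above it at 7 dps.

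Several matrix and immune genes that did not pass at 3 dps were higher in vehicle/ACS at 7 dps. Dcn had a log2 fold change of 1.00 at 7 dps (adjusted p = 0.000733) against -0.47 at 3 dps, a difference of -1.48 ± 0.29 (SE, adjusted p = 0.00348), and Col8a1 1.83 (adjusted p = 0.00131) against -0.99, a difference of -2.82 (adjusted p = 0.00366). Aif1 had 1.07 at 7 dps (adjusted p = 0.000964), a difference of -1.25 (adjusted p = 0.0217). The effect was lower at 3 than at 7 dps in 10 of 32 matrix glycoprotein and fibroblast genes, 10 of 24 collagen genes, 10 of 24 macrophage genes, 7 of 15 complement genes and 13 of 56 ribosomal protein genes, against 2.99% of all probes, and in none of these lists was it higher. Per2, higher by 2.64 at 7 dps (adjusted p = 6.78e-10), differed by -1.76 (adjusted p = 0.00118).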

How the data were processed

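The authors deposited non-normalized bead array intensities and a detection p-value per probe for each of the 33 arrays, and normalized intensities, which were used as an alternative. The scanner software's version is not given in the sources used here. Background was corrected from the detection p-values with an offset of 16, followed by quantile normalization over 33 arrays and log2. Probes with a detection p-value under 0.05 on at least 75% of the arrays of either group were tested. One limma 3.58.1 model (R 4.3.3) held all 9 groups, with a trended empirical Bayes variance, and p-values were adjusted by Benjamini-Hochberg over 9939 probes. The model and the adjustment were tested on simulated log2 values, and the earlier steps were not. Where no array of a group detected a probe, "at least" gives the brighter group's mean over the other group's mean of, per array, the lowest detected signal or the probe's own where higher. The labels name a mouse array, the study a rat one, and probes were named by the rat platform annotation, with 13793 of 22523 given 1 symbol. Genes named were the 15 largest changes in each direction among called genes whose groups did not overlap, genes the study's text names, up to 5 members per list with the lowest p, the 5 lowest p of each difference between times, and cell type markers. The other called genes, Gjb2 and some genes shown for their role were added after their values were seen. Members and lists were chosen with earlier results of these data known. Array replicates are separate rats. Alternatives were other normalizations, filters, variance models, a t-test with unequal variances, the study's thresholds (1.66-fold, p of 0.1), and leaving out each array. Promoters are from RefSeq (GRCr8). The number of arrays limits the precision.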

Additional observations from a re-analysis of the deposited data

Results flagged for a closer look

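The effect of vehicle/ACS against no sponge differed between 3 and 7 dps for 406 probes (limma, test of the difference itself, Benjamini-Hochberg adjusted), and 39 of the named genes were among them, 26 with a lower and 13 with a higher effect at 3 dps. The difference of the log2 fold changes, 3 dps minus 7 dps, was -1.21 for Col1a1, -1.48 for Dcn, -2.82 for Col8a1, -1.59 for Ccn1, -1.93 for Adamts2 and -2.62 for Cthrc1 among matrix genes (adjusted p from 0.000248 to 0.0437). It was -1.25 for Clec4a1, -1.25 for Aif1, -3.40 for A2m and -0.87 for Gpnmb among genes of phagocytes and of the acute phase (adjusted p from 5.55e-05 to 0.0285). It was -0.61 for Rpl21, -0.73 for Rpl7a, -0.60 for Rps18, -0.51 for Rpsa and -0.40 for Rpl35a among ribosomal protein genes (adjusted p from 4.73e-05 to 0.0085). For the other genes with a lower effect at 3 dps it was -2 for Gjb2, -0.85 for Pip4k2c, -0.51 for Eml2, -0.47 for Snw1, -0.32 for Chmp2a, -1.91 for Npy, -1.47 for Igfbp6, -0.57 for Cldn19, -1.76 for Per2, -2.02 for Ramp1 and -1.04 for Fxyd6 (adjusted p from 8.18e-05 to 0.0466). For those with a higher effect at 3 dps it was 0.93 for Pdgfd, 0.89 for Lims1, 0.70 for Mthfd2l, 0.69 for Ap2a1, 0.76 for Phf23, 0.82 for RT1-T18, 0.94 for Apln, 0.36 for Psmc2, 0.30 for Ttc1, 0.54 for Men1, 0.40 for Trpv2, 0.52 for Cntn1 and 0.38 for Cycs (adjusted p from 0.000785 to 0.0495). At 3 dps, Pip4k2c was detected on no vehicle/ACS array, RT1-T18 on no no sponge array and Apln on 1 of 3 no sponge arrays, so that their values are differences of measured signals at background and not sizes of change. Pdgfd was near background at 7 dps, where 2 of 4 arrays detected it in vehicle/ACS and 2 of 4 in no sponge. The rats at 3 and 7 dps were different animals. Genes called at 3 dps were chosen for their effect there, which enters the difference and can enlarge it.

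In 40 sets of values, each of 1 gene in a group of 4 rats at 1 or 7 dps, where chance would place about 1 in 20 this far, 2 had a rat far from the others. Igf2 had a log2 intensity of 9.62 in vehicle/ACS rat 1 at 7 dps, where the group mean was 8.94. Rpl7a had 12.38 in vehicle/ACS rat 2 at 1 dps, where the group mean was 12.23. Groups of 3 were not examined in this way, which leaves out both groups at 3 dps.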

How the results depend on the processing

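The 59 probes called at 3 dps kept their sign in every setting that measured them. Settings that changed only the filter, the groups fitted or the variance estimate left the fold changes as they were. In those settings the sign could not change. The number of calls did not hold. It was 17 with medians equalized between arrays (3 higher, 14 lower, as the median of all tested probes moved to -0.09), 100 with no detection filter, 16 when detection on all 6 arrays was required, 28 with robust estimation, 3 with array weights and 2 with the 3 groups at 3 dps fitted alone. It was 0 with the compared groups fitted alone (lowest adjusted p = 0.0554, 1000 probes at an unadjusted p under 0.05), 0 with the 6 arrays normalized alone (0.0552, 1003 probes), and 0 by the t-test with unequal variances, also on the authors' values. With the authors' normalized values it was 68, of which 48 were among the 59. Leaving out 1 array at a time gave 0 to 103 calls: 103, 10 and 0 without vehicle/ACS rats 1, 2 and 3, and 44, 4 and 57 without no sponge rats 1, 2 and 3. The cause was not tested.

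Replicate numbers were not used to pair the samples. The correlations of the deviations of vehicle/ACS and no sponge arrays with the same number were -0.05, 0.04 and 0.17. Those of arrays with different numbers were -0.165 to 0.128. So few values cannot decide whether the numbers pair the samples. With the replicate block 21 probes passed, 18 of them among the 59.

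At the study's thresholds 59 probes passed, of which only 12 were among the 59 calls above, against 114 with the authors' normalized values, 15 with no background correction, 38 with detection on all 6 arrays, 31 by the t-test with unequal variances, and 50 to 102 without 1 array (92 without no sponge rat 3, 102 without vehicle/ACS rat 3). The difference between 3 and 1 dps, with 0 calls, had 9 with the authors' normalized values and 0 to 6 without 1 array. The difference between 3 and 7 dps, with 406 calls, had 362 to 503 in other settings and 162 to 438 without 1 array (162 without no sponge rat 3, 178 without vehicle/ACS rat 2 of 3 dps, 254 without vehicle/ACS rat 2 of 7 dps). Of the 59 calls, 21 were of probes with a mean log2 intensity under 6 in both groups, near the detection limit.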
